A study of Mus musculus with 3 samples.

Results

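Oxidative phosphorylation genes encode the subunits of the respiratory chain and the ATP synthase. They were taken here by symbol (mt-Nd, mt-Co, mt-Cyt, mt-Atp, Nduf, Uqcr, Atp5 and Cox4 to Cox8, without Ndufa4l2 and the Ndufaf assembly factors), which gave 94 of the 32285 genes in the files. Of these, 13 lie on the mitochondrial genome and 81 in the nucleus. By name, 45 belong to complex I (7 mitochondrial, 38 nuclear), 9 to complex III (1 and 8), 21 to complex IV (3 and 18) and 19 to complex V (2 and 17). Ndufa4, named as a complex I gene and counted there, is now known as a subunit of complex IV.

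The data are Visium sections of the axial skeleton of mouse embryos, frozen and cut at 10 µm, with 1 section of each embryonic stage (E11.5, then E12.5, then E13.5) and no replicate within a stage. No treatment or altered allele is named in the labels. RNA with a poly-A tail was captured on spots of 55 µm, each a small region with several cells, and counted as unique molecular identifiers (UMIs, one per captured molecule). In order of stage, the sections held 44359910, 25490744 and 28754555 UMIs. A minimum of 1000 UMIs kept 1561, 1014 and 1360 of their spots. Of the barcodes that name the array positions, 345 were listed in all 3 sections, and 434 to 704 in a pair of sections.

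In the respiratory chain, complexes I, III and IV pass electrons from NADH to oxygen and pump protons out of the mitochondrial matrix, and complex V, the ATP synthase, uses the return of the protons to make ATP. The mitochondrial genome encodes a small core of the subunits, which is transcribed inside the organelle, and the other subunits come from nuclear genes. Several complex IV subunits exist as a common form and a tissue form, among them the heart and skeletal muscle forms Cox6a2, Cox7a1 and Cox8b.

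Spots were placed in tissue contexts by marker genes that are not members. A context needed at least 20 UMIs of its list per 10000 UMIs of the spot, or, for T (the notochord gene brachyury), at least 2 UMIs of T. In order of stage, heart spots numbered 92, 0 and 57, muscle spots 7, 94 and 462, cartilage spots 22, 94 and 257, neural spots 332, 202 and 50, and T spots 22, 36 and 45. Spots that met no list are called other (1086, 588 and 339). At E13.5 another 150 spots met several lists, 131 of them cartilage and muscle, and were left out. T spots took priority, and 8, 22 and 44 of them also met the cartilage list. The markers chose the spots and so describe them only. The 4 heart markers together held 7327 and 16607 CPM (counts per 1000000 UMIs) in heart spots at E11.5 and E13.5, against 106 and 224 in other spots. The muscle list held 4986, 4631 and 7101 CPM in muscle spots against 43.3, 354 and 846 in other spots. Blood, which the lists did not use, differed between contexts: 7 globin genes held 67965, 18933 and 11210 CPM in other spots at the 3 stages, 41141 and 7686 in heart spots, and 15735, 3964 and 6287 in cartilage spots. The part of blood in the results below was not tested. In a spot, fewer cells of a type and less RNA per cell cannot be told apart.

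The promoters of 2 tissue forms, Cox8b and Cox7a1, of their common partners, Cox8a and Cox7a2, and of Cox6a1, the partner of Cox6a2, are shown because Cox7a1 and Cox8b had the widest differences between contexts among members with a window. Windows run from 250 bases before to 50 after a start of the gene in GRCm38.p6. That assembly is called mm10 in the submitters' processing notes. Of those shown, all but the Cox7a2 window are set at the outer gene start in the RefSeq table. The Cox7a2 window lies inside the gene, which spans chr9:79755241-79771422 there. Capitals mark every match, on either strand, to 5 motifs. The E-box of the kind bound by myogenic factors was searched as CAGCTG. The TATA box was searched as TATAAA. An ETS-type site was searched as CCGGAAG and a YY1-type site as AAGATGGC. The NRF1 motif has 1 free base, and both of its forms in the Cox6a1 window are in capitals there. A match on the other strand reads as the reverse complement, and the matches shown do not overlap. The windows lie at chr7:140900397-140900696 (minus strand), chr19:7217567-7217866 (minus), chr7:30183921-30184220 (plus), chr9:79759804-79760103 (minus) and chr5:115348909-115349208 (minus), in the order shown.
Cox8b: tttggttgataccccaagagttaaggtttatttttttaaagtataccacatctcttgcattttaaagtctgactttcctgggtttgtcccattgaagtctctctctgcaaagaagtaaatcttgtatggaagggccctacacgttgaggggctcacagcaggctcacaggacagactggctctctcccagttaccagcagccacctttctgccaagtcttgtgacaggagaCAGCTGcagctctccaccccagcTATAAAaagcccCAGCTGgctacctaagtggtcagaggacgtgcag
Cox8a: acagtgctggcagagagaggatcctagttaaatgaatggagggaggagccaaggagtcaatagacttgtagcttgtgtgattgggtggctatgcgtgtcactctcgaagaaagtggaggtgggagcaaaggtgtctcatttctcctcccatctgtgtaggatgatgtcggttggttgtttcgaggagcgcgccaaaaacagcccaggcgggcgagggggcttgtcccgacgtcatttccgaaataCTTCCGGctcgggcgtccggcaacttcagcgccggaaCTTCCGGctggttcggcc
Cox7a1: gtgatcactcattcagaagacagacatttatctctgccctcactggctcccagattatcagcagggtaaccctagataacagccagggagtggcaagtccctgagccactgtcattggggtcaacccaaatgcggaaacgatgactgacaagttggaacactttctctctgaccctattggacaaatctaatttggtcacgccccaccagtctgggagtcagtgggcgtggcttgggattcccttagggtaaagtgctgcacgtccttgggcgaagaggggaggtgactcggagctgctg
Cox7a2: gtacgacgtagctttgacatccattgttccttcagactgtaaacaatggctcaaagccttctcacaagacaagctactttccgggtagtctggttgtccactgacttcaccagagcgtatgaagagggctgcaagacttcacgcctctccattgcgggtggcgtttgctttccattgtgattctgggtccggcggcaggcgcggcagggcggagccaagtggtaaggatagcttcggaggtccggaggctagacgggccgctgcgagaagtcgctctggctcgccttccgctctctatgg
Cox6a1: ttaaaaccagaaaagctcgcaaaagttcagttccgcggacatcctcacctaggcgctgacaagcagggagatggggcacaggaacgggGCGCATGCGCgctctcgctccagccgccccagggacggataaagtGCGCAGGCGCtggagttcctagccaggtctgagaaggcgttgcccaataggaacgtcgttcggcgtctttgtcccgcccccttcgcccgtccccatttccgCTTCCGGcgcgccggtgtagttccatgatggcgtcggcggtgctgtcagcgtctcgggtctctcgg

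The Cox8b window held the E-box letters at 2 places around a TATA box, and the Cox8a window held the ETS letters at 2 places. The Cox6a1 window held the NRF1 motif at 2 places and the ETS letters at 1. The Cox7a1 window, and the Cox7a2 window inside its gene, held none of the 5 motifs. Over the table, 72 windows matched 67 nuclear members, and 22.2% of these windows held the NRF1 motif against 4.60% of all 32851 windows. The ETS letters were in 20.8% of the member windows against 8.86% of all, and the YY1 letters in 13.9% against 2.75%. The E-box was in 8.33% against 16.3%, and the TATA letters in 9 of the 72 against 13.6%. These are matches of letters, described without a test.

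The members made up more of the RNA in heart spots than in any other context. The mitochondrial members held 2.44% of the UMIs of heart spots at E11.5 and 2.70% at E13.5. In other spots they held 1.18%, 1.11% and 1.40% in order of stage. Neural spots held 1.83%, 1.27% and 1.25%, above other spots at E11.5 and E12.5 and below them at E13.5. Muscle spots held 0.894%, 0.748% and 1.41%. The lowest shares were in cartilage spots, at 0.704%, 0.390% and 0.940%. T spots lay between cartilage and other spots in each section but the first, with 1.30%, 0.780% and 1.00%. The nuclear members ranked in the same way at the top and bottom and varied less: 5.56% and 5.89% in heart spots, 3.78%, 3.83% and 3.45% in neural spots, and 2.87%, 2.87% and 2.51% in cartilage spots. Muscle spots held 3.22%, 3.39% and 3.44% of nuclear members, other spots 3.14%, 3.26% and 3.12%, and T spots 3.07%, 3.08% and 2.54%. The order of cartilage, T and other spots within a section rests on small gaps in the nuclear share, and 1 section per stage gives no error for it.

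**Figure D1:**
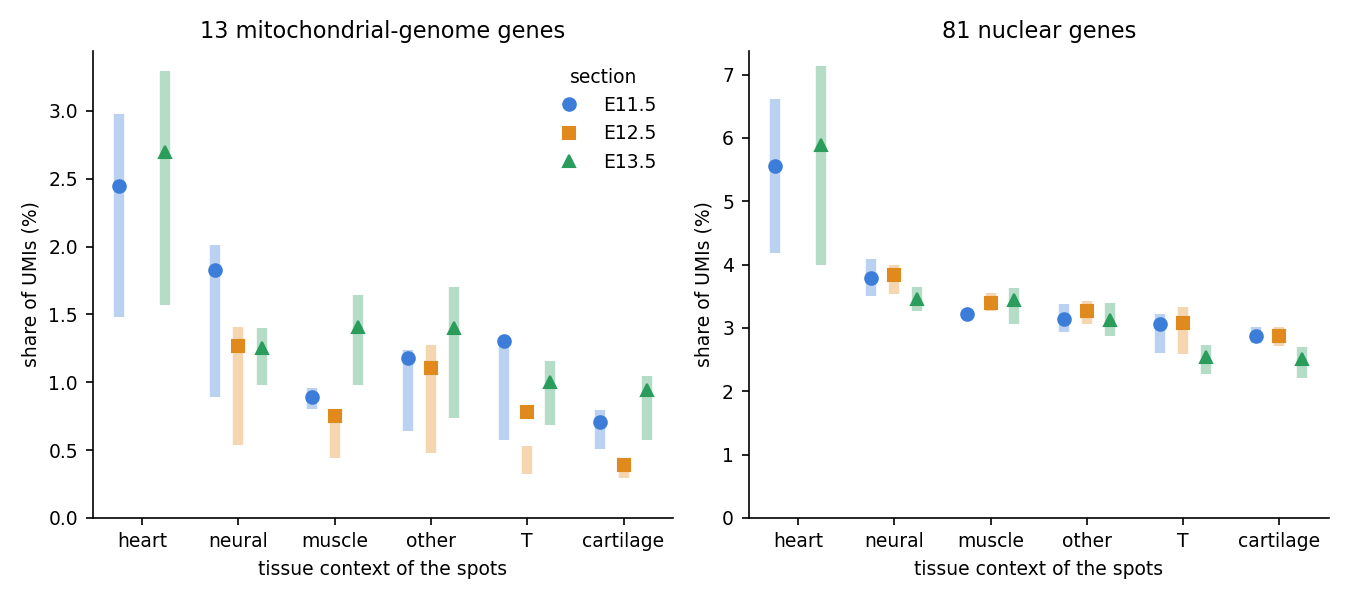
Share of UMIs (%) taken by the 13 mitochondrial-genome members (left) and the 81 nuclear members (right) in each tissue context. Symbols give the share of the summed UMIs of each section and bars the middle 50% of the spots. Heart spots are highest in both panels (2.44% and 2.70%, and 5.56% and 5.89%), and E12.5 has no heart spots.

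Relative to its median, the mitochondrial share varied more between single spots than the nuclear share. In the E11.5 heart the mitochondrial share ran from 0.645% to 5.17% over 92 spots with a median of 2.06%, and the nuclear share from 3.14% to 8.29% with a median of 5.11%. In the E13.5 heart the mitochondrial share ran from 0.431% to 6.51% with a median of 2.38%, and the nuclear share from 2.80% to 8.99% with a median of 5.73%. A nuclear share of at least 5% was reached by 48 of 92 heart spots at E11.5 and 35 of 57 at E13.5, and by 3 spots in all other contexts and sections together. A mitochondrial share of at least 3% was less bound to one context: 22 and 16 heart spots, 39, 32 and 1 neural spots, and 34, 59 and 24 other spots reached it at the stages that hold them. Across all spots of a section, the mitochondrial share rose with the UMIs of the spot, with Spearman's rho of 0.56 at E11.5 (1561 spots), 0.24 at E12.5 (1014) and 0.32 at E13.5 (1360). For the nuclear share rho was 0.06, 0.35 and 0.46 in the same order. Those spots share a library, and the UMIs stand in both measures of each correlation. The values also pool contexts that differ in depth and share. Within single contexts the nuclear rho ran from -0.16 (other) to 0.60 (T) at E11.5. It ran from 0.10 (other) to 0.75 (T) at E12.5 and from -0.04 (T) to 0.31 (cartilage) at E13.5. The mitochondrial rho at E13.5 ran from -0.23 (T) to 0.27 (neural).

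Median UMIs per spot differed between contexts, from 17612 in cartilage to 37934 in muscle at E11.5 and from 8306 in T to 27411 in muscle at E13.5. The contexts were therefore also compared over spots with 15000 to 30000 UMIs, a range chosen after the data were seen. There the mitochondrial share of heart spots was 1.99 and 1.98 times that of other spots at E11.5 and E13.5, against 2.08 and 1.93 over all heart spots. For cartilage it was 0.735, 0.393 and 0.719 times that of other spots, against 0.599, 0.353 and 0.671 over all cartilage spots. The nuclear share of heart spots in that range was 1.48 and 2.09 times that of other spots. Over all heart spots the nuclear ratios were 1.77 and 1.89, so that their size moved with the range. For cartilage the nuclear ratios were 0.896, 0.886 and 0.828, against 0.916, 0.880 and 0.804 over all cartilage spots.

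In heart spots, genes of every complex rose together. The comparison with other spots used UMIs summed by section and context. It was tested in edgeR by quasi-likelihood, with p-values adjusted by Benjamini and Hochberg's method over 13591 genes and called under 0.05. With the section as a block, a p-value sets a difference against how far context differences vary from section to section. That scatter is pooled over all contexts in 3 sections of 3 stages, and heart is present in 2 of them. A filter on low counts passed 91 of the 94 members, without Cox8c (1 UMI), Cox7b2 (12 UMIs) and mt-Nd6 (88 UMIs). Of the members, 88 were higher in heart and 0 lower, beside 8.23% of all genes tested higher and 3.24% lower. The 3 that did not pass were Cox6b2 at -0.15, mt-Atp8 at 0.99 and mt-Nd4l at 0.76 on the log2 scale. The last 2 overlap mt-Atp6 and mt-Nd4 on shared transcripts, so that the split of their reads is uncertain. The median log2 difference was 1.04 over the members tested and -0.04 over all genes tested. By complex the nuclear medians were 0.91 for complex I, 1.23 for complex III, 1.23 for complex IV and 1.08 for complex V, and the mitochondrial median was 1.11. These values are on the TMM scale of edgeR, which centres on the bulk of genes. On plain CPM, genes with at least 50 UMIs had a median ratio of -0.28 (E11.5) and -0.17 (E13.5) on the log2 scale in heart, and the members 0.80 and 0.90. The count was 63 without E11.5, 78 without E12.5 and 87 without E13.5.

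**Figure D2:**
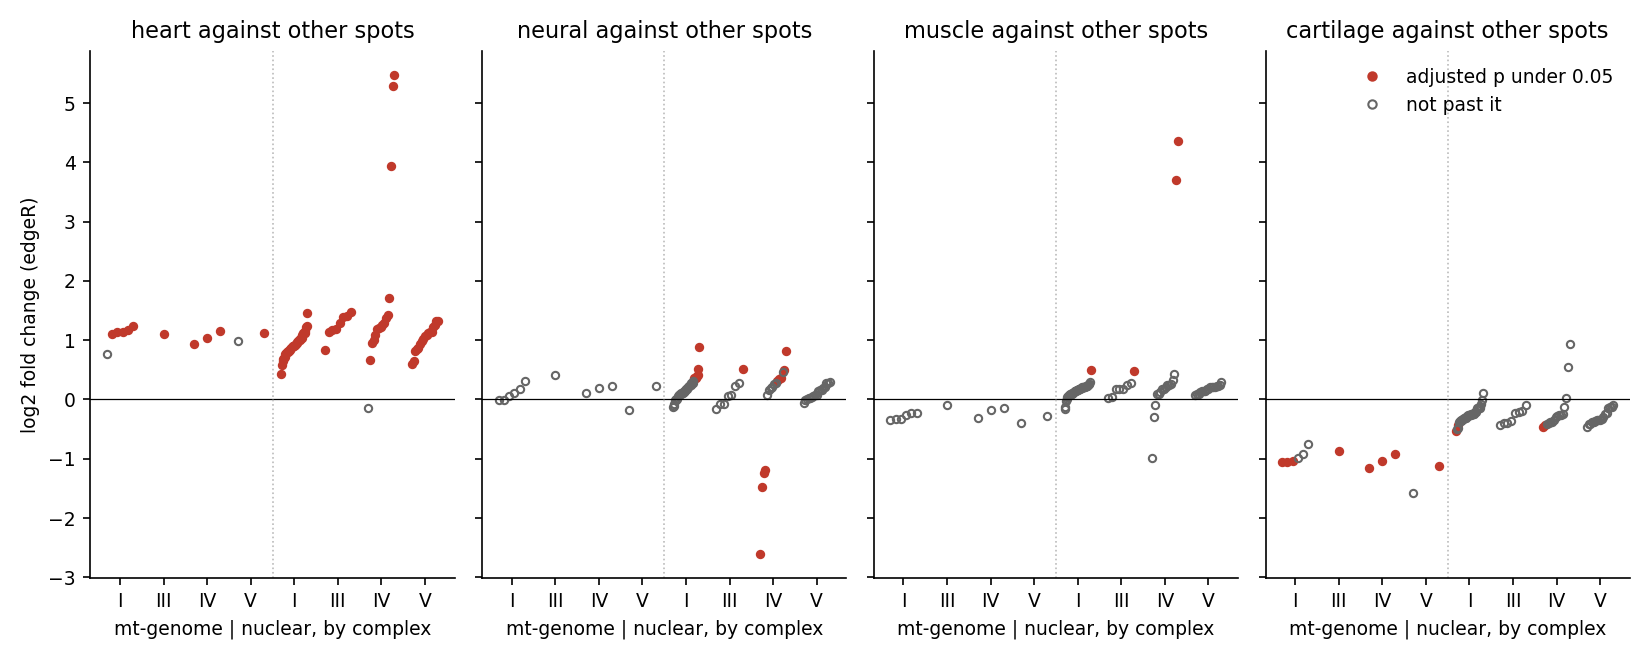
Log2 fold change of each tested member (edgeR, TMM scale) in heart, neural, muscle and cartilage spots against the same other spots, by complex and genome. Filled points passed an adjusted p under 0.05: 88 of the points in heart, 18 in neural, 4 in muscle and 12 in cartilage spots.

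The leading member was Cox6a2, the heart and muscle form of subunit 6a, with 462 CPM in heart and 5.63 CPM in other spots at E11.5, and 584 and 34.3 CPM at E13.5. Its log2 fold change was 5.48 ± 0.51 (SE; edgeR adjusted p = 3.71e-06). Cox7a1, the heart and muscle form of subunit 7a, stood at 248 CPM in heart and 7.68 in other spots at E11.5, and at 279 and 9.35 at E13.5. It differed by 5.29 ± 0.23 (adjusted p = 1.95e-09, from 1.18e-74 to 2.19e-04 over the alternatives). On plain CPM the log2 ratio of Cox7a1 was 5.01 at E11.5 and 4.89 at E13.5, and that of Cox6a2 was 6.36 and 4.09.

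Cox8b, the muscle form of subunit 8, had 19.9 CPM in heart and 0.404 in other spots at E11.5, and 35.1 and 4.54 at E13.5. Its log2 fold change of 3.94 (edgeR adjusted p = 0.000419) did not pass without the E11.5 section (2.67, adjusted p = 0.0662), nor without the block (adjusted p = 0.0534). Cox4i2, a form of subunit 4 known for its response to low oxygen, was at 36.2 against 8.52 CPM at E11.5 but at 20.6 against 17.9 CPM at E13.5. Its call (1.71, edgeR adjusted p = 0.0152) rested on the E11.5 section, without which it was 0.51 (adjusted p = 0.667).

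The next members were common subunits, named because their log2 fold changes were the next largest, so that their values are alike by choice. All tested nuclear members of complex I ran from 0.43 to 1.45, and those of complex V from 0.60 to 1.33. Uqcr11, a small subunit of complex III, went from 569 CPM in other spots to 1309 in heart at E11.5 and from 565 to 1451 at E13.5. The log2 fold changes were 1.48 ± 0.12 for Uqcr11, 1.41 ± 0.10 for Uqcr10 and 1.39 ± 0.14 for Uqcrfs1, the Rieske iron-sulfur subunit, all of complex III. In complex IV, Cox7b rose by 1.43 ± 0.14 and Cox5a by 1.37 ± 0.17. In complex I, Ndufv3 rose by 1.45 ± 0.15, and in complex V Atp5o, the stalk subunit called OSCP, rose by 1.33 ± 0.13 and Atp5g1, a gene for the rotor subunit c, by 1.32 ± 0.13. Among these 8 genes the widest gap between the sections' own CPM ratios was that of Cox5a, at 1.02 (E11.5) and 1.27 (E13.5) on the log2 scale. Of the mitochondrial members, 10 passed, led by mt-Nd1 (1.24 ± 0.26), and mt-Co1 rose by 1.15 ± 0.23, from 2924 CPM in other spots to 6273 in heart at E11.5 and from 3093 to 6185 at E13.5.

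Other genes of mitochondrial energy metabolism were tested in the same fit. All 4 genes of complex II, succinate dehydrogenase, were higher in heart, with Sdhd at 1.10. So were all 14 genes of the Krebs cycle, led by Idh3a (1.90). Of 11 genes of fatty acid oxidation 9 were higher, with Cpt1b, the muscle form of the enzyme that admits fatty acids to mitochondria, at 3.88 and Acadl at 2.12. Cytochrome c (Cycs) and the adenine nucleotide carrier Slc25a4 (1.58) were among 4 of 5 tested carriers that rose. Fewer passed among the assembly factors (9 of 37 tested, led by Cox17 at 1.30) and the mitochondrial ribosome (18 of 78, led by Mrps36 at 1.22, which is also known as a part of the 2-oxoglutarate dehydrogenase complex). Of 10 regulators of mitochondrial biogenesis tested, Ppargc1a, a coactivator, was higher at 3.51, with 12.3 against 1.55 CPM at E11.5 and 38.6 against 3.47 at E13.5, and its partner Esrra at 1.79. No gene of these lists was lower in heart. Genes of glycolysis and the response to hypoxia were higher as well, 8 of 11, with Bnip3 at 2.04, Pdk1 at 1.76 and the glucose carrier Slc2a1 at 1.75. These 3 were less raised at E13.5, where the CPM log2 ratio of Bnip3 was 0.69 against 2.40 at E11.5.

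Heart was also set against muscle, a comparison added after the data were seen that uses the same heart sums. Of the members, 81 were higher in heart and 0 lower, beside 8.03% and 4.66% of all genes tested, and the count was 53 without the E11.5 section, which holds 7 muscle spots. The median was 0.91 over the members tested and -0.00 over all genes tested. The member with the largest difference was Cox7a1, at 4.87 ± 0.28 (edgeR adjusted p = 7.99e-08), with 248 against 12.1 CPM at E11.5 and 279 against 9.28 at E13.5. Cox6a2 differed by 1.78 (edgeR adjusted p = 0.0302), a call that was lost without the E11.5 section (0.51, adjusted p = 0.635), without E12.5 (0.0516), without the section block (0.46), with doubled marker thresholds (0.078), with T spots taken at 1 UMI (0.114) and in DESeq2 (0.0555). Cox8b was at 19.9 against 28.3 CPM at E11.5 and 35.1 against 78.1 at E13.5, with a log2 fold change of -0.41 that did not pass (edgeR adjusted p = 0.773).

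The tissue forms were then read as a share of their pair, which frees them from the total level. Cox6a2 made up 31.4% of the UMIs of Cox6a1 and Cox6a2 in heart spots at E11.5 (exact binomial 95% interval 30.1 to 32.6) and 38.1% at E13.5 (35.8 to 40.4). In muscle spots it made up 16 of 128 UMIs at E11.5 (7.32% to 19.5%), 20.7% at E12.5 (18.7 to 23.0) and 37.5% at E13.5 (36.6 to 38.4). With the marker thresholds doubled, the muscle share was 31.9% at E12.5 and 42.2% at E13.5, and the heart share at E13.5 was 40.9%. The muscle share thus moved with the marker threshold by more than its counting interval, and lay below that of heart at E11.5. In other spots the share was 0.975%, 1.70% and 5.86%, and in neural spots 0.219%, 0.175% and 3.12%. Intervals cover counting error only, and 1 section per stage allows no test of the stage.

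Cox7a1 stayed low in muscle spots. Its share of the Cox7a1 and Cox7a2 pair was 16.1% (15.2 to 17.1) and 18.5% (16.7 to 20.4) in heart spots, and 2.03% (0.420 to 5.81), 0.641% (0.320 to 1.14) and 1.27% (1.05 to 1.51) in muscle spots. Other spots held 1.18%, 0.430% and 1.48%, so that the muscle values lay close to those of spots outside any list. The pair Cox8b and Cox8a had the opposite order, with Cox8b at 3.26%, 3.54% and 7.62% in muscle spots and 71 of 5905 UMIs (E11.5) and 2.32% (E13.5) in heart spots. With doubled marker thresholds the muscle share of Cox8b was 5.47% at E12.5 and 8.78% at E13.5. In T and cartilage spots at E11.5 Cox8b had 0 UMIs of 320 and 244 in the pair, which allows a share of up to 0.938% and 1.23% if the limit is set at 3 UMIs of the pair. The upper ends of the exact binomial 95% intervals are 1.15% and 1.5005%.

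Cox4i2 held 1.90%, 2.23% and 2.71% of the Cox4i1 and Cox4i2 pair in cartilage spots, against 0.768%, 0.702% and 1.61% in other spots and 0.368%, 0.293% and 0.614% in muscle spots. In T spots it held 0.525% at E11.5, on 3 UMIs, and 2.77% and 3.02% at the later stages. In heart spots it held 1.89% at E11.5, next to the cartilage value, and 1.11% at E13.5. Cox6b2, best known from testis, held 3.76%, 2.12% and 5.23% of its pair in neural spots, against 11.1%, 7.75% and 10.6% in other spots.

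**Figure D3:**
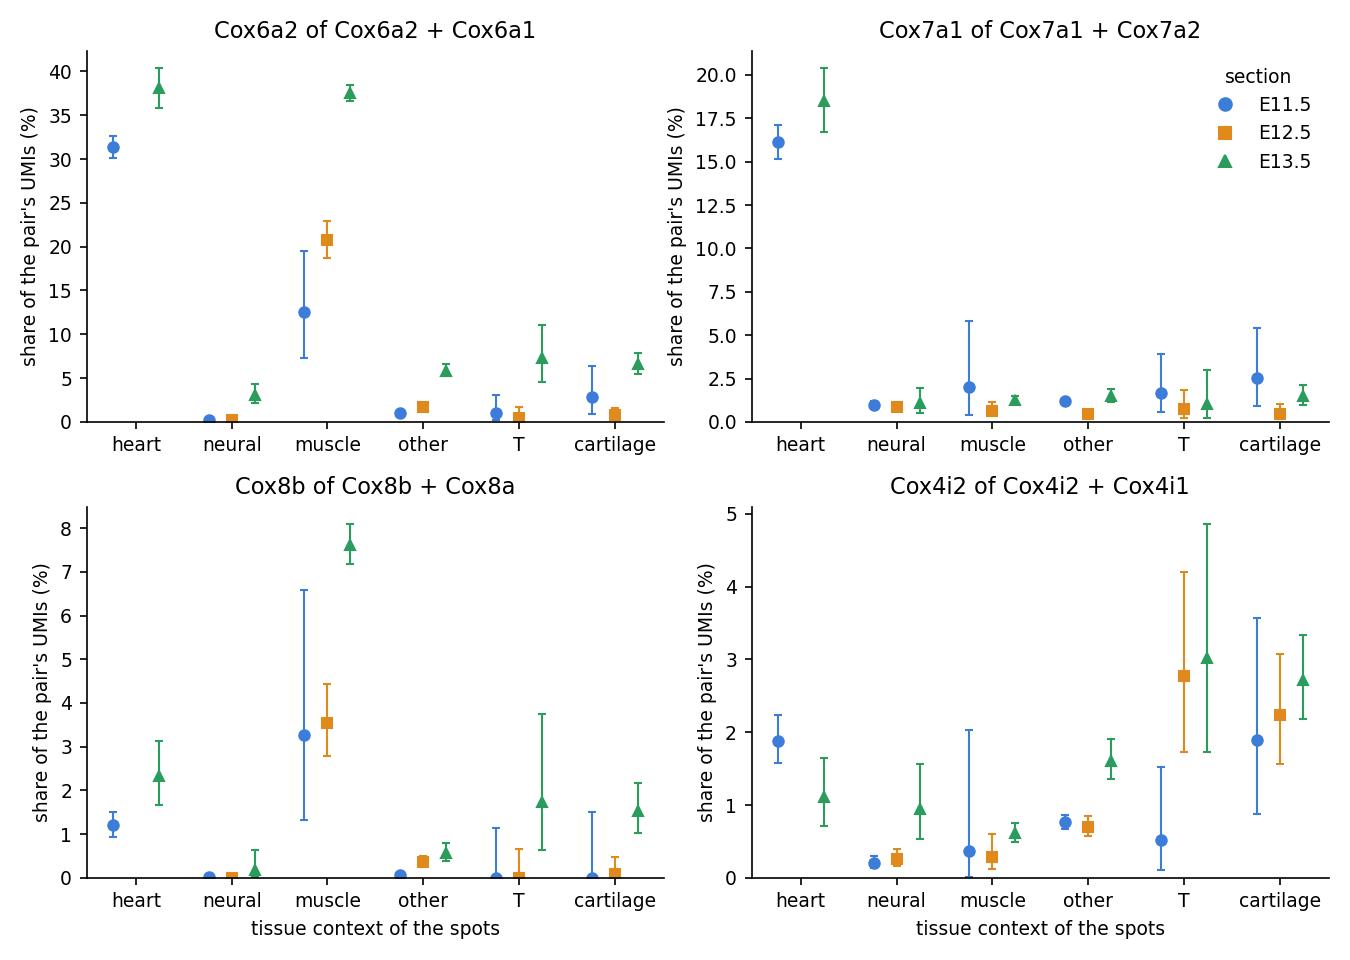
Share of the pair's UMIs (%) held by the tissue form in each context and section, with exact binomial 95% intervals for counting error. Cox6a2 reaches 38.1% in heart and 37.5% in muscle at E13.5, while Cox7a1 is at 18.5% in heart and 1.27% in muscle.

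In muscle spots few members changed, and 2 tissue forms led. Against the same other spots, 4 members were higher and 0 lower, beside 4.27% and 2.67% of all genes tested, so that the share of members called is near the background. The median was 0.16 over the members tested, 0.17 over the nuclear and -0.27 over the mitochondrial ones, and -0.03 over all genes tested. Cox8b rose by 4.35 ± 0.53, with 28.3, 31.1 and 78.1 CPM in muscle against 0.404, 2.73 and 4.54 in other spots. Cox6a2 rose by 3.70 ± 0.45, with 64.8, 125 and 323 CPM against 5.63, 9.75 and 34.3. Both had an edgeR adjusted p of 0.000107 and passed when any 1 section was left out. Without the section block Cox8b alone was called (Cox6a2 adjusted p = 0.118). The complex I accessory subunit Ndufc2 (0.50 on the log2 scale) was not called without E11.5 (edgeR adjusted p = 0.0611) or without E12.5 (0.323). Uqcrfs1 (0.48) was not called when any 1 section was left out (0.163, 0.072 and 0.312). The mitochondrial share of muscle spots was 0.761 and 0.676 times that of other spots at E11.5 and E12.5 and 1.00 times at E13.5.

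Of the other lists in muscle spots, Timmdc1, an assembly factor of complex I (0.79), Mrpl30 (0.38) and Gapdh (0.53) were higher and the fatty acid oxidation enzyme Acaa2 was lower (-0.75). None of 4 complex II genes and none of 14 Krebs cycle genes passed in edgeR in muscle spots, with 0 and 2 at an unadjusted p under 0.05.

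In cartilage spots the mitochondrial members were lower. Against the same other spots, 12 members were lower and 0 higher, beside 1.97% and 1.84% of all genes tested. In that comparison 8 of the 12 lie on the mitochondrial genome: mt-Co2 (-1.16 ± 0.29), mt-Atp6 (-1.12), mt-Nd4 (-1.06), mt-Co3 (-1.05), mt-Nd1 (-1.05), mt-Nd2 (-1.04), mt-Co1 (-0.93) and mt-Cytb (-0.87 ± 0.19). mt-Co2, which encodes the subunit of complex IV that takes electrons from cytochrome c, had 544, 316 and 708 CPM in cartilage against 952, 1103 and 1147 in other spots. mt-Cytb, the core of complex III, had 1045, 717 and 1459 CPM against 1698, 1483 and 2206. Every section showed cartilage below other spots for both genes, with the widest gap at E12.5.

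The edgeR adjusted p was 0.0359 for mt-Co2 and 0.0198 for mt-Cytb. The count of lower members was 0 without the E11.5 section, 0 without the E12.5 section, 14 without E13.5, 0 without the section block and 35 in DESeq2. The median log2 fold change was -1.04 over the mitochondrial members tested, -0.28 over the nuclear ones and -0.02 over all genes tested. The 4 nuclear members that passed were Ndufb1-ps (-0.53), Cox6c (-0.47), Cox8a (-0.43) and Ndufb6 (-0.42). Cox6c had 934, 1045 and 885 CPM in cartilage against 1183, 1224 and 1298 in other spots. Among the 11 genes of glycolysis and hypoxia tested, 0 passed in edgeR (4 at an unadjusted p under 0.05, all higher), with a median of 0.59. The Krebs cycle genes had a median of -0.16 and none passed (4 at an unadjusted p under 0.05).

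**Figure D4:**
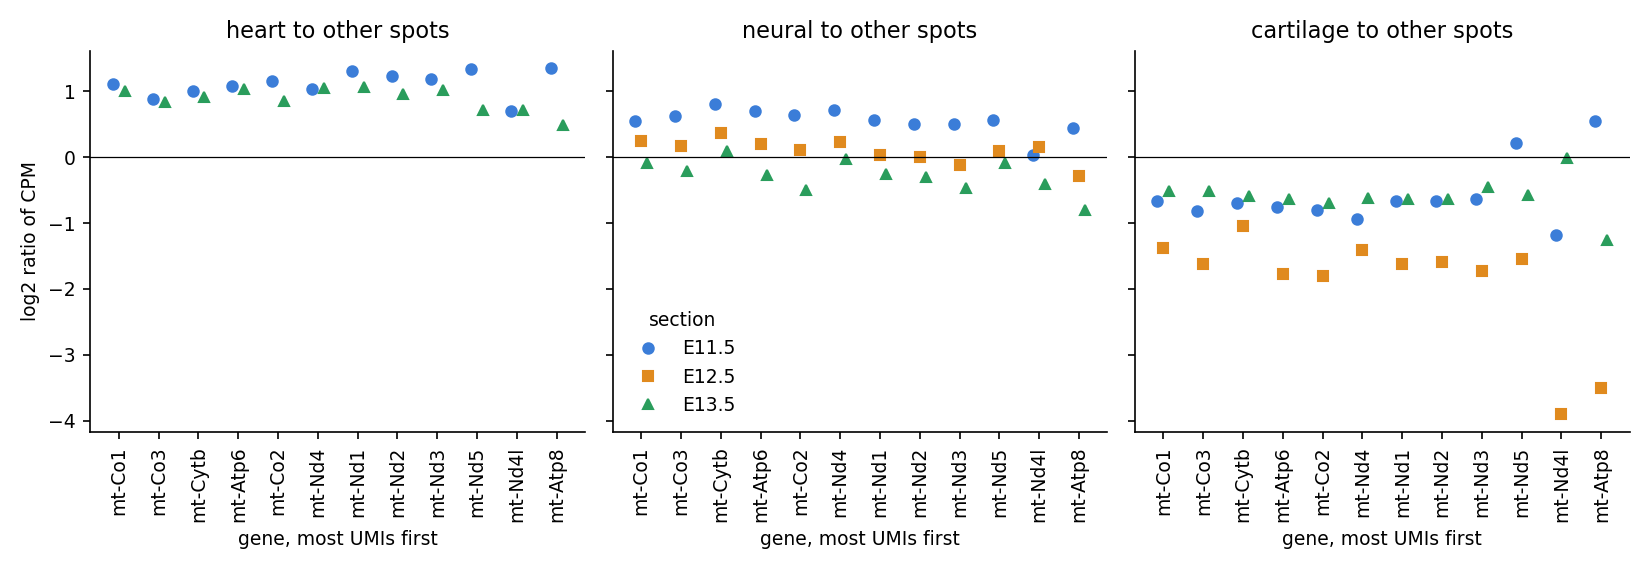
Log2 ratio of CPM (0.5 UMI added) of 12 mitochondrial-genome members in heart, neural and cartilage spots to other spots, one symbol per section. Heart lies above 0 in both sections, neural spots fall from E11.5 to E13.5 for the abundant genes, and cartilage is lowest at E12.5. mt-Nd4l and mt-Atp8 rest on few UMIs.

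T spots were compared with cartilage spots, since many of them met both lists. Of the members, 0 were higher and 0 lower in edgeR, beside 0.118% and 0.0% of all genes tested, with 9 at an unadjusted p under 0.05, all higher in T spots, and 1 higher in DESeq2. The 5 with the lowest p were Ndufa8 (0.65 ± 0.15, edgeR adjusted p = 0.235), mt-Co1 (0.64), mt-Cytb (0.58), mt-Nd1 (0.71) and mt-Co3 (0.70). Ndufa8, an accessory subunit of complex I, had 179, 178 and 226 CPM in T spots against 92.0, 128 and 149 in cartilage. The summed mitochondrial share of T spots was 1.85 times that of cartilage at E11.5 and 1.07 times at E13.5, and at E12.5 it was 0.780% against 0.390%. Over spots with 15000 to 30000 UMIs the ratios were 1.32, 1.27 and 0.976, so that the direction at E13.5 turned. The median spot held 0.713% in T and 0.655% in cartilage at E11.5, and 0.384% and 0.351% at E12.5, with T spots reaching 3.49% and 3.30% and cartilage spots 1.03% in both sections. Without the E13.5 section, in which 44 of 45 T spots also met the cartilage list, 6 members were called higher. Blood differed between T and cartilage spots as well. In order of stage, the globin genes held 53740, 7312.5 and 4524 CPM in T spots against 15735, 3964 and 6287 in cartilage spots. T spots thus held more at E11.5 and E12.5 and less at E13.5. The part of blood in the T to cartilage ratios was not tested.

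In neural spots 14 nuclear members rose, and 4 alternative forms of complex IV subunits fell. Against the same other spots, 14 members were higher and 4 lower. These counts, of 91 members tested, stand beside 20.8% and 20.6% of all genes tested. Neither lies above that background, and the count of lower members lies under it. They are not read as a result about the members. The count of higher members depended on the sections: it was 4 without E11.5, 3 without E12.5 and 26 without E13.5. Without the section block 2 were higher and 1 lower. The 5 highest were Ndufv3 (0.89 ± 0.14), Cox5a (0.82 ± 0.15), Ndufa1 (0.51), Uqcrfs1 (0.51) and Cox6a1 (0.50). Ndufv3, a subunit of the NADH-oxidising arm of complex I, had 441, 473 and 539 CPM in neural spots against 261, 237 and 268 in other spots (edgeR adjusted p = 0.000142). Cox5a had 830, 744 and 509 CPM against 445, 386 and 321. Both genes were higher in neural spots in 3 of 3 sections. Ndufv3 passed under every alternative run, with adjusted p from 5.51e-13 to 0.0141.

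Others that passed in neural spots were Ndufa11, Ndufb9, Ndufb8, Ndufb2, Ndufs4 and Ndufs5 of complex I, Cox6b1, Cox7a2 and Cox5b of complex IV, with log2 fold changes from 0.32 to 0.41. The 4 lower ones were Cox8b (-2.61), Cox6a2 (-1.48), Cox6b2 (-1.24) and Cox4i2, at 3.02 against 8.52 CPM at E11.5 and 3.27 against 7.08 at E12.5. For Cox8b this rests on 2, 0 and 2 UMIs in neural spots. The muscle list held 43.3, 354 and 846 CPM in other spots and 16.4, 63.6 and 683 in neural spots, and its part in the lower Cox8b and Cox6a2 was not tested. Cox6b2 had 22.4, 14.7 and 30.0 CPM in neural spots against 53.5, 42.6 and 50.5 in other spots. Ckmt1, a mitochondrial creatine kinase, rose by 3.39, and the fatty acid oxidation list had 5 of 11 lower (Acaa2, Etfb, Hadhb, Acadl and Hadha) and 0 higher. None of the 12 mitochondrial members tested passed in neural spots in edgeR (1 at an unadjusted p under 0.05, mt-Cytb).

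The mix of mitochondrial members was described by each gene's proportion. Over the 17 sums of section and context, mt-Co1 held 21.8% to 27.1% of mitochondrial member UMIs, mt-Co3 19.6% to 24.7%, mt-Cytb 13.4% to 18.8% and mt-Atp6 up to 15.1% with a median of 14.3%. mt-Co2 held 6.50% to 9.98%, mt-Nd4 3.40% to 6.39% and mt-Nd1 4.46% to 5.55%. mt-Nd2 held 2.84% to 4.23% and mt-Nd3 1.45% to 2.64%. The rarer genes varied more for their size, with mt-Nd5 at 0.136% to 0.584%, mt-Nd4l at 0.0134% to 0.133% and mt-Atp8 at 0.0134% to 0.0799%. mt-Nd6, the gene read from the other strand, had 85 UMIs in these sums and 0 in 5 of them. The ranges compare contexts for 1 gene at a time and do not rank the genes.

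At E13.5 most members were within a factor of 2 of their E11.5 level. This passes over E12.5, where the summed mitochondrial members were lower than at E11.5. In order of stage they held 14191, 10466 and 13798 CPM over all spots. In cartilage spots they held 7040, 3904 and 9401 CPM, and in neural spots 18295, 12657 and 12544. Over all spots, the E13.5 level divided by that at E11.5 was at least 2 for 2 members and at most 0.5 for 0, of 92 with at least 50 UMIs, beside 14.6% and 7.96% of all genes with that many UMIs. The 2 were Cox8b, with 2.07, 4.43 and 40.7 CPM at the 3 stages and a ratio of 19.6 (95% interval 15.8 to 24.5), and Cox6a2, with 41.8, 17.7 and 192 CPM and a ratio of 4.58 (4.35 to 4.83). The muscle list stood at 62.3, 655 and 3814 CPM over all spots. The part of more muscle in the section was not tested. At the other end, Cox5a went from 568 to 471 to 379 CPM (ratio 0.667), Cox7a1 was at 27.4, 4.16 and 19.8 CPM (0.723), with no heart spots at E12.5, and Ndufs6 had a ratio of 0.774. The median log2 ratio was -0.05 over the members and 0.09 over all genes.

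Within heart spots 0 members were at or past 2 and 0 at or under 0.5, beside 7.16% and 2.68% of all genes. The ratios ran from 0.568 for Cox4i2 to 1.76 for Cox8b, with Ndufb4 at 1.65 and Ndufs6 at 0.649. In cartilage spots 1 member, Cox6a2 (2.66, 95% interval 1.11 to 8.36, from 5 UMIs at E11.5), was at least 2 and 0 at most 0.5, beside 14.8% and 3.7% of all genes. The muscle list of cartilage spots went from 36.3 to 1061 CPM between these stages, and its part was not tested. In neural spots 1 member, again Cox6a2, was at least 2 and 0 at most 0.5, beside 14.3% and 5.52%. It went from 1.81 to 24.6 CPM in neural spots, while their muscle list went from 16.4 to 683 CPM. In muscle spots 6 members were at least 2 and 0 at most 0.5, beside 22.8% and 5.49% of all genes. They were mt-Nd5 (4.15, from 3 UMIs at E11.5), mt-Nd4 (2.60, 95% interval 2.07 to 3.31), mt-Nd3 (2.19), Cox6a2 (4.99), Cox8b (2.76) and Ndufs1 (2.39, from 7 UMIs), and the E11.5 value rests on 7 spots. The median log2 ratio in muscle spots was 0.72 over 12 mitochondrial members, 0.11 over 79 nuclear ones and 0.14 over all genes. Cox5a had ratios under 1 in heart, neural and cartilage spots, with 903 and 775 CPM in heart, 830 and 509 in neural and 409 and 231 in cartilage spots at E11.5 and E13.5. mt-Co2 in neural spots had 1488, 1187 and 815 CPM, a ratio of 0.547. With 1 section per stage none of these ratios has a test, and stage cannot be told apart from section.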

How the data were processed

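The deposited matrices hold raw counts of UMIs per gene and spot for 3 sections, and the file headers name Space Ranger 1.2.0. The submitters' processing notes list STAR and mm10. For the gene annotation and for how spots over tissue were picked, nothing is given in the sources. Reads of near-identical copies, including nuclear copies of mitochondrial genes and pseudogenes of small subunits, may be split or lost in counting. The members, lists and comparisons were chosen with earlier results of these data known.

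Each section's stage came from its title. A minimum of 1000 UMIs per spot dropped 2, 0 and 5 spots. Counts were summed into 17 sums of section and context with at least 5 spots. edgeR 4.0.16 (filterByExpr, TMM, glmQLFit and glmQLFTest, section as a block because contexts of a section share the tissue) in R 4.3.3 was fitted to all sums, with Benjamini-Hochberg adjustment over all genes. Whether sections are from 1 or several embryos is not stated. With the block, p-values are set against the scatter of context differences between these sections, pooled over all contexts. All comparisons with other spots share those spots. DESeq2 1.42.0 was an alternative. The steps were tested on simulated data. These had a fixed scatter and the same change in every section, so they do not cover differences that vary between sections. Section log2 ratios used 0.5 UMI added. Stage ratios have exact conditional binomial 95% intervals. Python 3.11.15, numpy 2.4.6, scipy 1.17.1, pandas 2.3.3 and matplotlib 3.10.9 were used.

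Genes were named by rule: mitochondrial genes, isoform pairs, up to 12 called members in each direction (5 with the lowest p where none passed), up to 6 members by stage ratio, and up to 6 called genes of each other list. Beyond it, Cox5b in neural spots, Ndufb4 in heart spots and the stage ratios within contexts were named after their values were seen. Aldoa has 2 entries and was left out of its list, which left 11 of 12 genes. All 94 members were in the name table. Spot positions and images were not used here.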

Additional observations from a re-analysis of the deposited data

Results flagged for a closer look

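The summed mitochondrial members stood in opposite directions between neural and other spots at different stages. Their share in neural spots was 1.56 times that in other spots at E11.5, 1.14 times at E12.5 and 0.896 times at E13.5. The difference between the stages was not tested, since each stage has 1 section. Over spots with 15000 to 30000 UMIs the ratios were 1.29, 1.08 and 0.898.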

How the results depend on the processing

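No fold change of a named gene and no mean over sections turned its direction, but within E13.5 the T to cartilage ratios did over spots with 15000 to 30000 UMIs (mitochondrial 1.07 to 0.976, nuclear 1.01 to 0.967). For cartilage, 35 members were lower in DESeq2, 7 with T spots taken at 1 T UMI, 0 with doubled marker thresholds, 0 without the section block (the replicate block here) and 0 to 14 leaving out a section. For neural spots, the higher count was 30 in DESeq2, 9 without the filter on low counts, 2 without the block and 3 to 26 leaving out a section. The lower count there was 2 with T at 1 UMI, 1 without the block and 1 to 4 leaving out a section. For muscle, 11 were higher in DESeq2, 1 without the block and 2 to 3 leaving out a section. For T against cartilage, 1 was higher in DESeq2 and 0 to 6 leaving out a section, and for heart against muscle 53 to 80 were higher. Doubled thresholds gave nuclear log2 ratios of 0.99 (heart to other) and 0.88 (heart to muscle). They gave Cox6a2 shares of 33.1% and 40.9% in heart at E11.5 and E13.5, and 31.9% and 42.2% in muscle at E12.5 and E13.5. Cox8b shares became 5.47% and 8.78% in muscle at E12.5 and E13.5. The heart to muscle nuclear log2 ratio was 0.80 without mitochondrial genes in the totals. Over spots with 15000 to 30000 UMIs it was 0.95 and rests on E13.5 alone, where it was 0.78 over all heart and muscle spots. Over that range of UMIs the T to cartilage nuclear log2 ratio was 0.0201, a mean of 3 sections. The causes were not tested. Where E11.5 or E13.5 is left out, heart has 1 sum, assumed to vary like the other contexts. Of the 590 comparisons of single genes with an alternative, 452 kept their side of the threshold, 133 lost a call and 5 gained one. Members with few UMIs, such as mt-Nd6, were limited by those counts, and the reason for the low counts was not tested.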
